A study of Rattus norvegicus with 16 samples.

Results

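The circRNAs described here are 2 of the 14145 circRNAs with a probe on the array, namely rno_circRNA_011473 from the gene Suclg2 (probe ASCRPR001527) and mmu_circRNA_45606 from the gene Pdk3 (probe ASCRPR009827). Both come from the study's list of the circRNAs with the largest differences in m6A quantity, where the first stands among the hypermethylated and the second among the hypomethylated ones. They were thus chosen by the intensity of the precipitated fraction in the same rats, and every difference between the groups given below is a description without a test. The rats were adult male Sprague-Dawley rats with a tube placed in the spinal sheath. In the MT group, 4 rats received 10 μg of morphine hydrochloride in 10 μl intrathecally each morning and evening for 7 days, which makes rats tolerant to morphine, and in the NS group 4 rats received 10 μl of normal saline on the same schedule. The lumbar enlargement of the spinal cord was collected after a further injection on the next morning, so that neurons, glia and vessels are mixed in each sample. An antibody against N6-methyladenosine (m6A) was used to separate total RNA into the bound fraction (IP, labeled with Cy5) and the fraction left in the supernatant (SUP, labeled with Cy3), and both were treated with RNase R, which degrades linear RNA, and hybridized to 1 array per rat. The deposited labels tag the antibody of the SUP samples as input, while their titles and the protocol name the supernatant, and they are taken as supernatant here. If they were input, the m6A level would not be a share of all RNA and expression would count the bound RNA again.

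Both host genes code for mitochondrial proteins. Suclg2 encodes the GDP-forming beta subunit of succinyl-CoA synthetase, which turns succinyl-CoA into succinate in the citric acid cycle and forms GTP on the way. Pdk3 encodes a pyruvate dehydrogenase kinase, which phosphorylates the pyruvate dehydrogenase complex and thereby slows the entry of pyruvate into that cycle. A circRNA is a ring closed by back-splicing of exons, and its level need not follow that of the mRNA or protein of its host gene, neither of which was measured on these arrays. The m6A mark is a methyl group on adenosine that is set by METTL3 and METTL14, removed by FTO and ALKBH5 and bound by YTH domain proteins. The name of the second circRNA carries the prefix for mouse although the array is one for rat. The array files name probes and not genes, and each probe was paired with its circRNA through the fold change and P that the study lists for it. Of the 31 genes of the citric acid cycle and of pyruvate entry that were listed for comparison, only these 2 could be paired with a probe, and marker genes of spinal cord cell types were not checked for the same reason.

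The scanner reports for each spot an intensity, a local background and a mark for signal well above background, and each circRNA probe has 1 spot per array. On the 8 arrays, the share of circRNAs that stood well above background was 83.6% to 92.7% in IP and 90.3% to 96.2% in SUP, with MT replicate 4 lowest in IP. All MT rats were hybridized in the first row of the arrays and all NS rats in the second, so that array position and group cannot be told apart. The m6A quantity is the log2 IP intensity normalized with the 102 probes named as spike-ins, the m6A level is IP as a percentage of IP and SUP together, and expression is the log2 of both intensities added.

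The circRNA from Suclg2 was bright in SUP and dim in IP, and in both fractions it was higher in every MT rat than in any NS rat. Its m6A quantity was 5.77, 6.32, 6.57 and 5.78 in MT replicates 1 to 4. The values in the NS rats, in the same order, were 4.05, 5.03, 5.26 and 3.59. The group means were 6.11 ± 0.40 (SD, n = 4) in MT and 4.48 ± 0.79 (SD, n = 4) in NS, a log2 difference of 1.63. The IP spot was well above background on all 4 MT arrays but on only 1 NS array, replicate 3, so that the size of the difference is uncertain, and with normexp background correction it was 0.27. That was the difference the circRNA was chosen for, and with the processed intensity 2 of the 12893 circRNAs tested for IP, itself included, had one at least as large. A fold change of at least 1.5 with an unadjusted P under 0.05 by limma, the thresholds of the study's criterion, was found in 1.67% of the circRNAs tested in the direction of higher and 0.132% in that of lower values in MT. These 215 and 17 circRNAs were 111 and 103 with the deposited values and 29 and 0 with normexp, and without MT replicate 4 there were 1534 higher ones. Since both circRNAs were chosen by such a criterion in the deposited values, nothing is read from whether they pass it here. MT lay entirely above NS in IP in 2.74% of all circRNAs with a value from each rat.

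**Figure D1:**
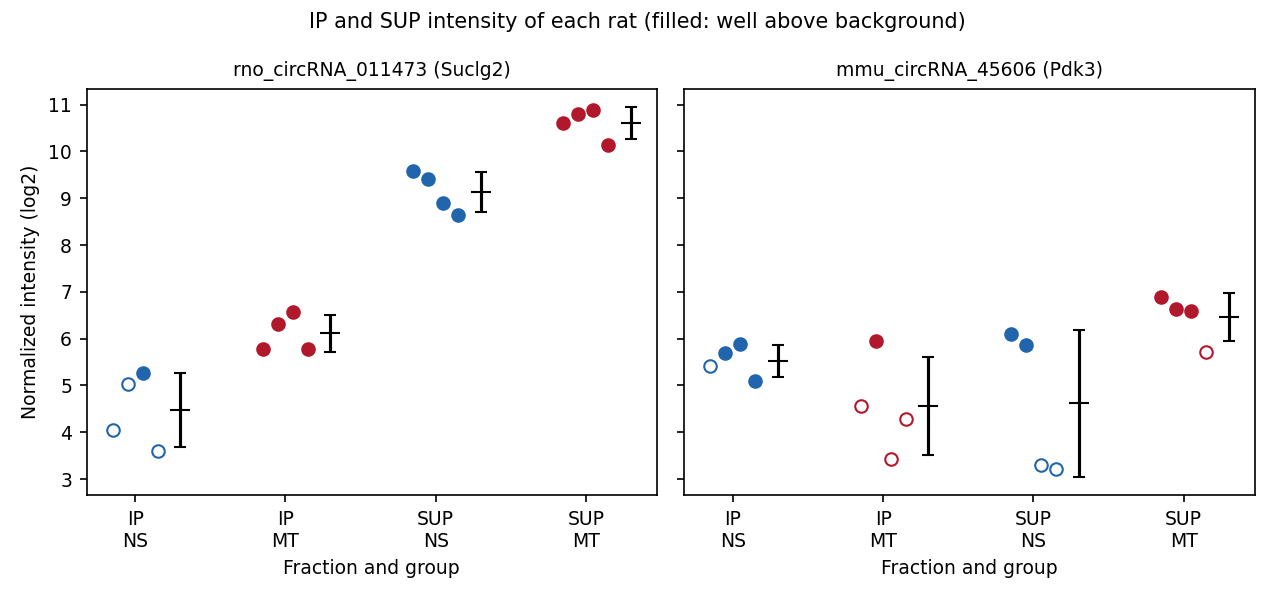
Normalized log2 intensity of the circRNAs from Suclg2 (left) and Pdk3 (right) in IP and SUP, with 1 point per rat (NS blue, MT red), filled where the spot was well above background, and the mean ± SD of 4 rats in black. For Suclg2 the MT rats lie above the NS rats in both fractions, from 10.13 to 10.88 in MT against 8.65 to 9.59 in NS for SUP, whereas for Pdk3 open points stand in all 4 groups.

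In SUP the same spots were far from background. The normalized SUP intensity of the circRNA from Suclg2 was 10.60, 10.80, 10.88 and 10.13 in the MT rats, given by replicate number. The NS rats had 9.59, 9.40, 8.89 and 8.65. The lowest MT rat was thus above the highest NS rat, as in 10.9% of all circRNAs with a SUP value from each rat (1.09% had MT entirely below NS). The means were 10.60 ± 0.33 (SD, n = 4) and 9.13 ± 0.44 (SD, n = 4), a log2 difference of 1.47, while the median difference over the 12669 circRNAs with both fractions detected was 0.26. A difference at least as large was found in 190 of these circRNAs. In whole tissue, more cells that contain the circRNA and more of it per cell cannot be told apart. Expression, which is nearly all SUP for this circRNA, was 10.67 ± 0.33 (SD, n = 4) in MT and 9.20 ± 0.43 (SD, n = 4) in NS, and its difference of 1.47 stands beside a median of 0.16 over all circRNAs. MT lay entirely above NS in expression in 8.89% of all circRNAs. Expression differed at least as much in 57 of the 12669 circRNAs.

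The m6A level of the circRNA from Suclg2 had nearly the same mean in both groups with the processed intensity, but 3 of the 4 NS levels, those of replicates 1, 2 and 4, rest on IP spots that were not well above background. It was 3.40%, 4.30%, 4.81% and 4.67% in MT replicates 1 to 4. The NS rats showed 2.10%, 4.60%, 7.46% and 2.92%. The range of the NS rats enclosed that of the MT rats. The means were 4.29% ± 0.63 (SD, n = 4) and 4.27% ± 2.37 (SD, n = 4), a difference of 0.0239 percentage points with a standard error of 1.23, where the median difference over all circRNAs was −3.14 points. The difference was −7.57 points with normexp, and it turned negative when MT replicate 3 or 4 or NS replicate 1 or 4 was left out, from −0.699 to −0.100 points.

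**Figure D2:**
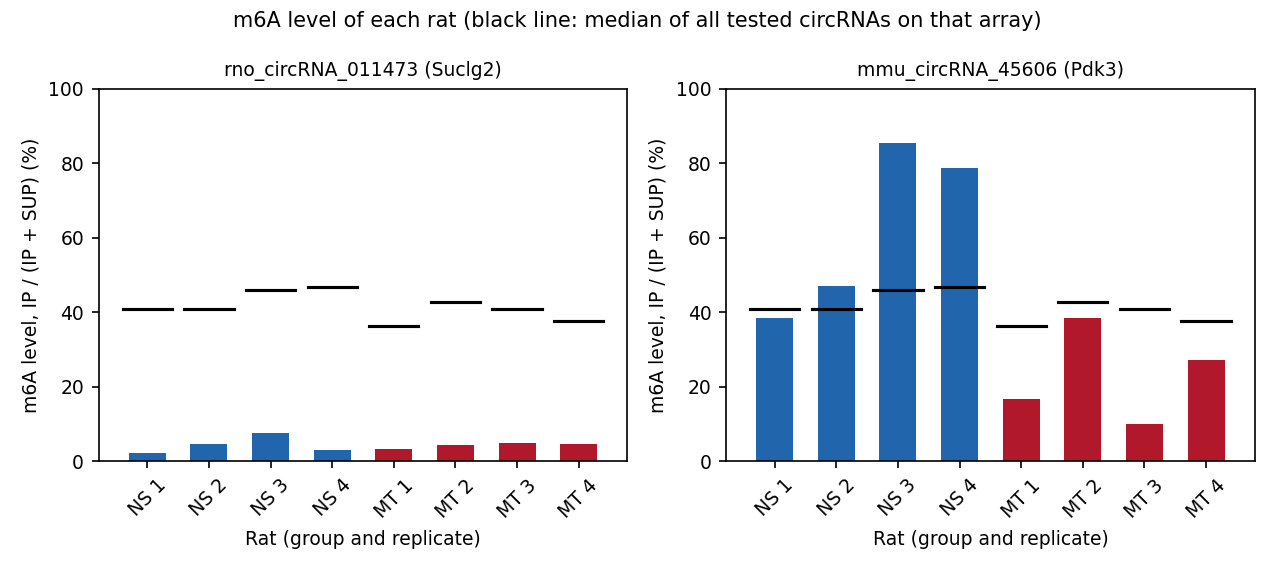
The m6A level (IP as a percentage of IP and SUP) of each rat for the circRNAs from Suclg2 (left) and Pdk3 (right), NS in blue and MT in red, with a black line at the median of all tested circRNAs on the same array. The level of Suclg2 stayed between 2.10% and 7.46% in all 8 rats, far under the medians of 36.4% to 46.8%, while that of Pdk3 ranged from 9.94% to 85.6%.

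The m6A share of each circRNA was also set against that of the other circRNAs on the same array, a comparison of fractions within rats. The choice rested on the difference between MT and NS and not on this comparison, but it used the same IP intensities, and the circRNA from Suclg2 passed the filter on IP with 4 MT arrays and 1 NS array. For this, log2(IP/SUP) was centred on the median over the tested circRNAs of the array, and the mean of the group means was tested against 0 with limma across all circRNAs. For Suclg2 the centred log2(IP/SUP) was −4.02, −4.05, −3.78 and −3.62 in MT replicates 1 to 4. It was −5.01, −3.84, −3.41 and −4.87 in NS replicates 1 to 4. All 8 rats were thus far below the median circRNA. The mean was −4.08 with a standard error of 0.18 and a 95% interval from −4.48 to −3.67, that is, IP relative to SUP was below that of the median circRNA (limma, adjusted P = 9.76e-08). In the 4 MT rats, where the spot was well above background in both fractions, the mean was −3.87 ± 0.21 (SD, n = 4). In 3 of the 4 NS rats IP was not well above background, so that the size is uncertain. The standard error, the interval and the tests over all 8 rats include these 3 values, and only the direction is read from them. A setting chosen after seeing the data kept only rats with both fractions well above background, 4 MT rats and 1 NS rat. The mean of the group means was then −3.64 by limma. Its spread within groups came from the MT rats alone, so that no P is read from this fit. An exact permutation test over all sign patterns of the 8 rats gave a two-sided p of 0.0078, the smallest that it can give, and with the 5 rats just named it gave 0.0625, again the smallest possible and not under 0.05. Of all circRNAs tested, 40.2% were lower than the array median at an adjusted P under 0.05 by limma and 39.8% were higher, so that the call itself is common. The mean stood at place 100 of 12669 from the lowest. IP was Cy5 and SUP Cy3 on every array, so that a dye effect of this probe and a low m6A share cannot be told apart. When the background was instead corrected by normexp, from the median signal of each spot, the mean was −1.51 (adjusted P = 2.32e-08 by limma), at place 666.

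**Figure D3:**
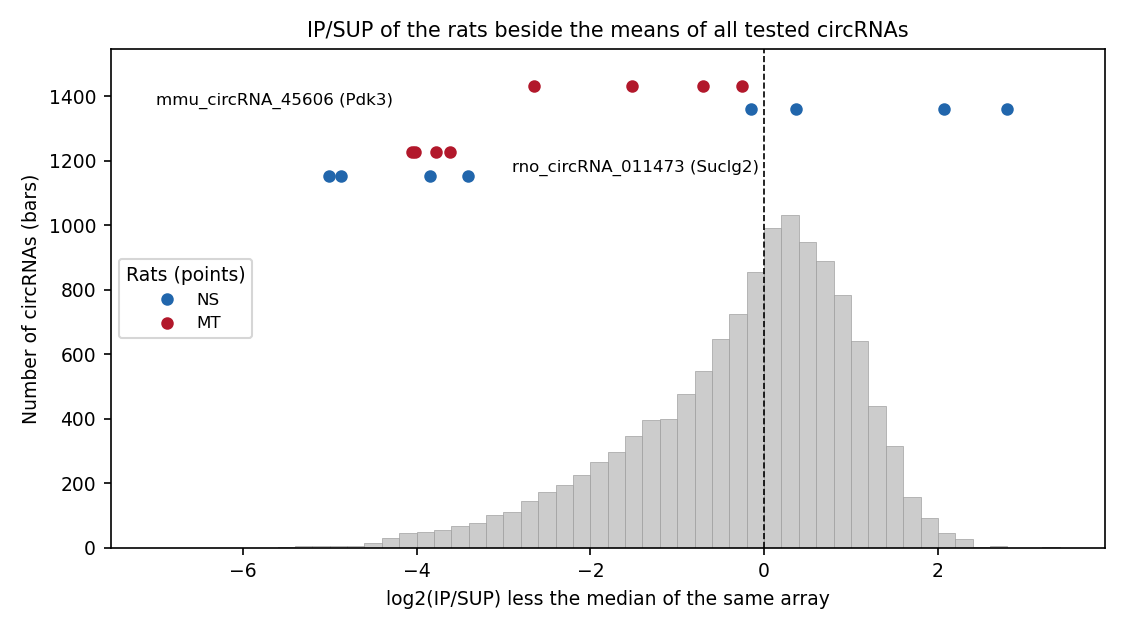
Bars count the 12669 tested circRNAs by their mean log2(IP/SUP) less the median of the array, and points above show the single rats for the circRNAs from Suclg2 (lower rows) and Pdk3 (upper rows), NS in blue and MT in red. All 8 rats of Suclg2 lie between −5.01 and −3.41 in the left tail, and the rats of Pdk3 spread from −2.65 to 2.80 around the median (dashed).

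The IP spots of the circRNA from Suclg2 were only slightly brighter than their surroundings. The median signal of the spot exceeded its local background by 7, 12, 13.5 and 9.5 scanner units in MT replicates 1 to 4. In the NS rats the excess was 5, 6.5, 6.5 and 5 units. MT still lay above NS without any normalization, but its lowest rat exceeded the highest NS rats only as 7 exceeds 6.5 units. On this measure, added after the data were seen, MT lay entirely above NS in 0.938% of the circRNAs tested for IP. The processed IP intensity was 4.76 to 8.22 times the error that the scanner software estimates for the spot in MT and 1.69 to 4.94 times in NS, whereas in SUP it was 9.78 to 9.99 times that error on all arrays. With normexp, which adds an offset of 50 units, more than the excess of any of these IP spots, the log2 difference was the 0.27 given above in IP and 0.97 in SUP.

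The circRNA from Pdk3 was near background in both fractions, with a lower mean in IP and a higher mean in SUP in the MT group. Its m6A quantity was 4.56, 5.95, 3.42 and 4.29 in MT replicates 1 to 4. The NS rats had 5.41, 5.70, 5.88 and 5.10. MT replicate 2 was the highest of all 8 rats and the other 3 MT rats were the lowest, so that the groups overlapped, where 2.44% of all circRNAs had MT entirely below NS. The means were 4.56 ± 1.05 (SD, n = 4) in MT and 5.52 ± 0.34 (SD, n = 4) in NS, a log2 difference of −0.97, that is 1.96-fold lower in MT. A difference at least as far down was found in 14 of the 12893 circRNAs, itself included. With the deposited values, by which the circRNA was chosen, the log2 difference was −1.14, and without MT replicate 3 it was −0.59. The IP spot was well above background on only 1 MT array, so that the size of the difference is uncertain. With normexp the difference was 0.08, with the opposite sign.

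The IP spots of the circRNA from Pdk3 were hardly brighter than their surroundings in the MT rats. They were well above background on 1 MT array, replicate 2, and on 3 NS arrays, replicates 2, 3 and 4. The median spot signal exceeded its local background by −1.5, 1, 2.5 and 3.5 scanner units in MT replicates 1 to 4. In NS replicates 1 to 4 the excess was 5, 6, 8 and 4 units. By this measure, which was added after the data were seen, all MT rats lay below all NS rats, as in 2.53% of the circRNAs tested for IP, but this difference also contains that of the local backgrounds. The scanner software marked the local background of this spot as an outlier in the IP channel on all 4 MT arrays and on no NS array. Of the 14145 probes, 1 showed this pattern and 2 showed the reverse. The marked backgrounds were 19.5, 23, 17.5 and 18.5 units in MT replicates 1 to 4. The unmarked ones in NS replicates 1 to 4 were 17, 20, 18 and 19 units, so that the groups overlapped. With spots marked in this way counted as not detected, the circRNA was measured in IP on 3 arrays and dropped out of the tested set. The part of these marks in the IP difference was not tested. No such mark was set in SUP, or in either channel for the circRNA from Suclg2.

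**Figure D4:**
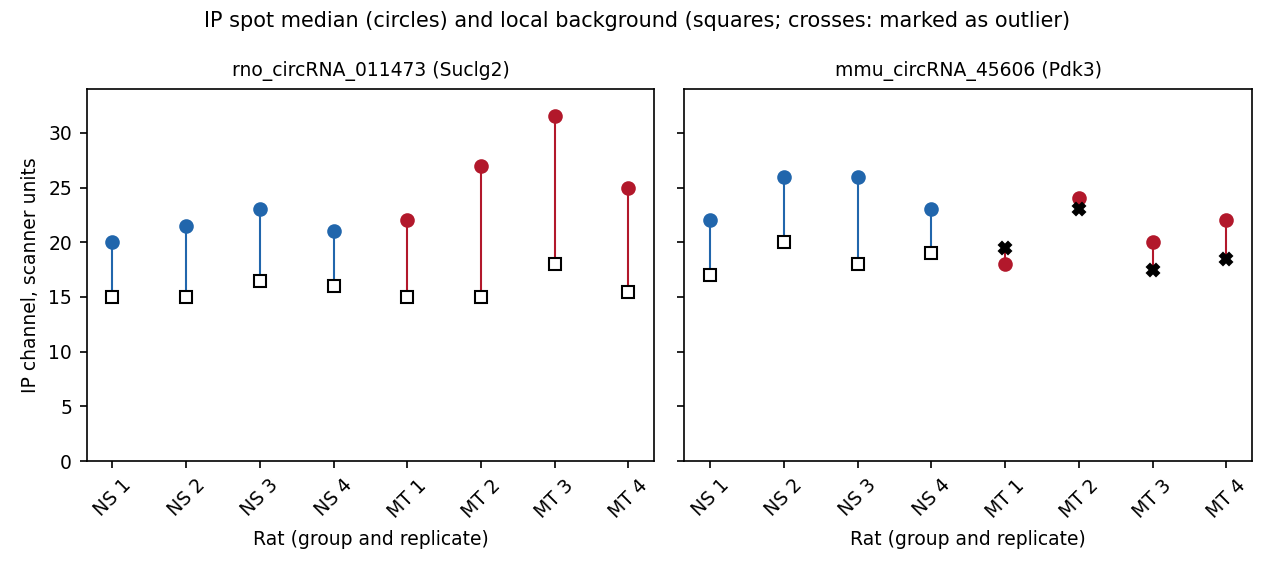
Median IP signal of the spot (circles, NS blue and MT red) and median of its local background (squares, or crosses where marked as an outlier) in scanner units for each rat, for the circRNAs from Suclg2 (left) and Pdk3 (right). The signal exceeded the background by 7 to 13.5 units in MT and 5 to 6.5 in NS for Suclg2, and by −1.5 to 3.5 units in MT and 4 to 8 in NS for Pdk3, where crosses stand on the 4 MT arrays.

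In SUP the circRNA from Pdk3 was 6.89, 6.63, 6.60 and 5.71 in MT replicates 1 to 4. In NS replicates 1 to 4 it was 6.09, 5.86, 3.31 and 3.21. MT replicate 4 lay below NS replicates 1 and 2, and NS replicates 3 and 4 lay far below the other rats. In these 2 rats the processed intensity was 9.96 and 8.67 with scanner errors of 9.82 and 8.35, so that the signal was about as large as its error. The spot was well above background on 3 MT and 2 NS arrays. The means were 6.46 ± 0.51 (SD, n = 4) and 4.62 ± 1.57 (SD, n = 4), a log2 difference of 1.84 that 33 of the 12669 circRNAs reached, and with normexp the difference was 0.12. Expression was 6.85 ± 0.51 (SD, n = 4) in MT and 6.28 ± 0.64 (SD, n = 4) in NS, a log2 difference of 0.57 with overlapping groups. It was 0.29 without NS replicate 4 or with the deposited values, 0.16 with scaling to the 75th percentile, 0.11 with quantile normalization or normexp, and −0.000885 with loess and Aquantile normalization.

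The m6A level of the circRNA from Pdk3 was 16.6%, 38.48%, 9.94% and 27.1% in MT replicates 1 to 4. In NS replicates 1 to 4 it was 38.44%, 47.1%, 85.6% and 78.8%. The groups met at MT replicate 2 and NS replicate 1, whereas MT lay entirely below NS in 8.82% of all circRNAs, and the highest levels came from NS replicates 3 and 4, whose SUP signal was near its error. The means were 23.0% ± 12.5 (SD, n = 4) and 62.5% ± 23.2 (SD, n = 4), a difference of −39.4 percentage points with a standard error of 13.2. The median difference over the 12669 circRNAs was −3.14 points. That of Pdk3 was the lowest, but its level contains the IP values by which it was chosen, and both fractions were well above background in 2 of the 8 rats only. With normexp it was −0.66 points and stood at place 8152 from the lowest, and the log2 difference in IP was then 0.08, with the opposite sign.

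**Figure D5:**
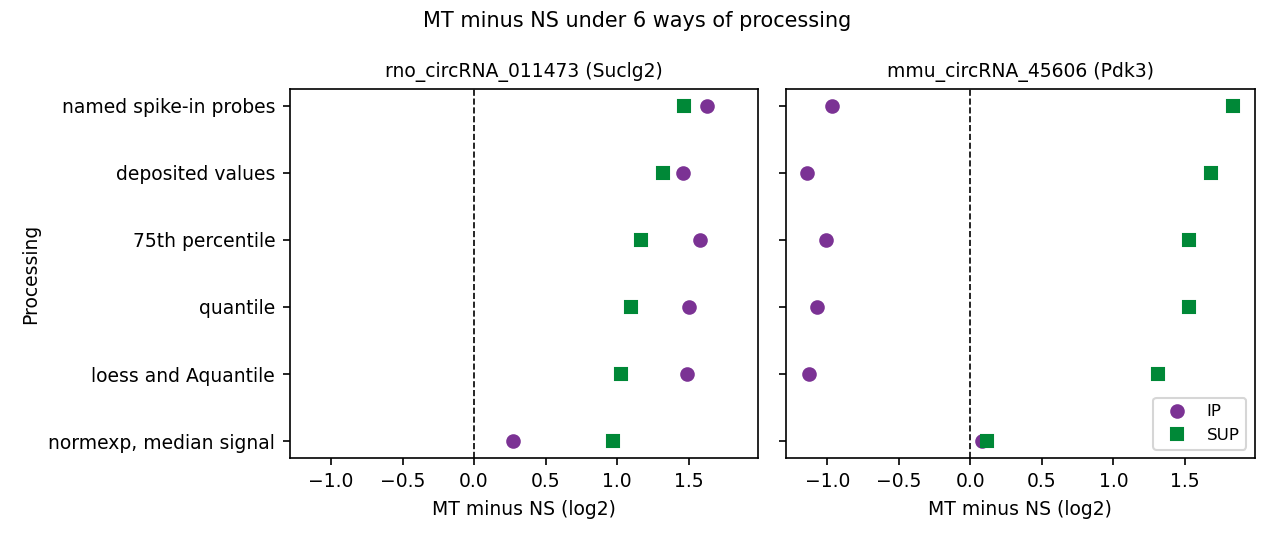
Log2 difference between the means of MT and NS in IP (circles) and SUP (squares) under each processing of the arrays, for the circRNAs from Suclg2 (left) and Pdk3 (right), with a dashed line at 0. With normexp the IP difference was 0.27 for Suclg2 and 0.08 for Pdk3, against 1.63 and −0.97 with the named spike-in probes.

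Relative to the array median, log2(IP/SUP) of the circRNA from Pdk3 was −1.52, −0.25, −2.65 and −0.70 in MT replicates 1 to 4. In NS replicates 1 to 4 it was −0.15, 0.37, 2.80 and 2.07. Once centred in this way, all MT rats lay below all NS rats, as in 2.69% of all circRNAs, whereas the uncentred levels overlapped. The mean over both groups, −0.00306, averages group means of −1.28 ± 1.05 (SD, n = 4) in MT and 1.27 ± 1.39 (SD, n = 4) in NS. Both fractions were well above background in only 2 of the 8 rats, 1 in each group, so that the test against the array median says nothing about the m6A share of this circRNA. The mean was −0.1 with normexp and −0.5 against the spike-in probes in place of the array median.

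As measured by Pearson r over the 8 rats, the m6A quantity of the circRNA from Suclg2 was most like that of probe ASCRPR007609 (r = 0.968), whose log2 difference between MT and NS was 0.40, and of ASCRPR005868 (r = 0.932), with a difference of 0.80. That of Pdk3 was most like ASCRPR008167 (r = 0.965) and ASCRPR013224 (r = 0.953), whose log2 differences were −0.10 and −0.07. These were the highest among 12844 circRNAs compared, and the values are descriptions over 8 arrays, in which a probe shares the array and its normalization with every other. The IP spot was well above background on only 5 of the 8 arrays for Suclg2 and 4 for Pdk3, so that values near background enter each r.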

How the data were processed

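Bound (IP) and unbound (SUP) RNA from the lumbar spinal cord of 8 rats was measured on 8 arrays of 2 colours. The authors deposited scanner output from Agilent Feature Extraction 11.0.1.1 (per the submitters' processing notes), in which the processed intensity of a spot is background-subtracted and dye-normalized, and a table of log2 values that the authors normalized with spike-in RNA, with 1 constant per array and channel. Which spike-ins they averaged is not known here. The Cy5 and Cy3 files of each rat held the same values.

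From the processed intensity, log2 was taken, the mean log2 of the 102 named spike-in probes of the array and channel was subtracted, and 1 constant was added for all arrays. IP was analysed for the 12893 circRNAs whose IP spot passed the scanner's background mark on 4 or more of the 8 arrays, with outlier spots counted as not detected, and both fractions for 12669. The IP/SUP ratio was tested with limma 3.58.1 in R 4.3.3 (lmFit, eBayes, Benjamini-Hochberg) and an exact sign permutation test over rats, after tests on simulated data. The rats are biological replicates per the labels. The number of arrays limits the precision. The circRNAs and lists were chosen with earlier results of these data known. Named were both circRNAs and, for each, the pair of probes with the highest correlation in IP. Alternatives were other background corrections, normalizations, filters, outlier rules, centring, replicate blocks, fold and test definitions, and leaving out each rat.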

Additional observations from a re-analysis of the deposited data

How the results depend on the processing

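For Suclg2, IP/SUP against the array median kept its direction and its side of the threshold by limma under all 12 alternatives, from −4.57 to −1.51 (limma, adjusted P from 5.23e-11 to 1.15e-05), and without any 1 rat it was −4.22 to −3.95. With only rats in which both fractions were well above background, 4 MT rats and 1 NS rat, it was −3.64 by limma, with a spread from MT alone. In the exact permutation test it was −3.78 (p = 0.0625, the smallest with 5 rats), and Pdk3, with 2 such rats, got no test. With the replicate block it was −4.08 (adjusted P = 1.15e-05 by limma). Rats with the same number lay in the same array column, and their deviations correlated by 0.43 to 0.62 for numbers 1 and 4 but by −0.21 to −0.01 for 2 and 3, so that they were not treated as pairs. The block moved the number of circRNAs past the criterion from 215 to 323 higher in MT. With normexp, whose offset of 50 units exceeds the signal of these IP spots over local background, the log2 differences between MT and NS were 0.27 in IP, 0.97 in SUP and 0.83 in expression for Suclg2, its m6A level differed by −7.57 points, and those of Pdk3 were 0.08 in IP, 0.12 in SUP and −0.66 points in level. With loess and Aquantile, Suclg2 differed by 1.03 in SUP and 1.05 in expression, and Pdk3 by −0.000885 in expression. IP/SUP of Pdk3, whose test is not read in the report, was −0.00306 (adjusted P = 0.994 by limma, exact permutation p = 1), and −0.1 with normexp (adjusted P = 0.0403 by limma, exact permutation p = 0.0078), 0.07 with quantile normalization, 0.09 with loess and Aquantile, 0.05 without a filter, −0.5 against the spike-in probes in place of the array median (adjusted P = 0.284 by limma) and 0.21 with IP and SUP unpaired (no replicate block). Leaving out 1 rat gave −0.26 to 0.23 by limma and −0.4 to 0.37 in the exact test. The cause of these changes was not tested. Without 1 rat, the level difference of Suclg2 was −0.699 to 1.09 points and turned negative without MT replicate 3 or 4 or NS replicate 1 or 4. Past the criterion were 29 to 323 circRNAs higher in MT (29 with normexp, 111 with the deposited values, 139 with Student's test) and 0 to 103 lower (17 in the report, 0 with normexp, 26 with the 75th percentile, 43 with quantile or loess, 103 with the deposited values, 46 without a filter, 5 with all 8 arrays above background), and without 1 rat 103 to 1534 (1534 without MT replicate 4) and 10 to 36. The filter on all 8 arrays left neither circRNA, and counting marked local backgrounds as not detected, chosen after seeing the data, left no value for Pdk3.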
